A study of Homo sapiens with 8 samples.

Results

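The genes described here are 10 transcription factors that cells switch on early after a stimulus. FOS, FOSB, FOSL1, FOSL2, JUN, JUNB and JUND are the FOS and JUN families of AP-1 factors. The others are the zinc finger factor EGR1 and the orphan nuclear receptors NR4A1 and NR4A2. All 10 were picked by symbol from a table of 58735 genes. All 10 were found and passed the filter on low counts that left 15790 genes for testing. They were brought together because FOSL1 was higher and NR4A1 lower in cells with SPOCK1, so the differences between the groups are given for all 10 as a description. Where a member is said to be called or not, this restates the values that led to the choice and supports nothing.

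RNA was sequenced from SW480, a human colorectal adenocarcinoma line with a truncated APC. In 4 libraries the cells stably overexpressed SPOCK1-flag, a tagged form of the secreted proteoglycan testican-1, and in 4 libraries they carried the vector control. Per the labels' protocols, cells were infected with lentivirus and kept in 4 μg/ml puromycin until overexpression was seen by Western blot, and they grew in medium with serum. Nothing in the labels tells separate cultures or infections from repeats of 1 selected population, so spread between libraries may be technical and other differences between the selected populations cannot be told apart from those due to SPOCK1.

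Libraries held 35643585 to 42812951 counts. SPOCK1 had 6719 to 9712 counts in libraries with the construct and 0 to 6 counts in controls, as their labels say. Of 10 colon epithelial markers 7 were tested, with a summed level of 14500 to 16200 CPM with SPOCK1 and 12900 to 15800 CPM in controls. Most of this came from KRT8, KRT18 and KRT19, at means of 8806, 4715 and 1477 CPM with SPOCK1 and 8281, 4515 and 1335 CPM in controls. CDX2, VIL1 and CDH1 had lower means with SPOCK1, at 93.1, 64.8 and 11.2 CPM against 104.3, 78.0 and 17.8 CPM in controls. EPCAM averaged 219.6 CPM with SPOCK1 and 218.4 CPM in controls. The differentiation markers KRT20, CDH17 and LGALS4 were below the filter in these cells. Markers of fibroblasts, immune and endothelial cells each summed to at most 2.29 CPM in any library, and DCN, LUM and CDH5 had no count at all. CPM are counts scaled to a common library size with TMM factors, and a gene is called where its adjusted p in the edgeR quasi-likelihood test over all tested genes was under 0.05.

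AP-1 factors bind DNA as dimers through a basic leucine zipper. Within the FOS and JUN families, JUN proteins pair among themselves or with FOS proteins, whereas FOS proteins need a JUN partner. Both families also have partners among other leucine zipper factors. FOS, EGR1 and NR4A1 mRNAs usually peak and vanish quickly after growth factor or serum stimulation, through kinases of the MAPK cascade that act on SRF with its ELK cofactors and on CREB. FOSL1, which encodes FRA1, comes up later and stays high where ERK signalling is sustained. EGR1 and the NR4A receptors bind DNA elements of their own, and NR4A receptors can do so as monomers.

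To show the members' regulatory sequence, 3 stretches just upstream of a start are printed, chosen because the motifs they hold differ. They are the 250 bases before the RefSeq start on GRCh38.p14, from 5′ to 3′ along the gene, with motif matches in capitals. The stretch of NR4A1, the member called lower, lies at chr12:52022582-52022831 on the plus strand. It precedes the upstream of the 2 NR4A1 starts listed in the RefSeq table used, and it held none of the motifs searched. EGR1 lies at chr5:138465229-138465478 on the plus strand and held 2 CArG boxes, the element of SRF, and 1 EGR1 site. JUND lies at chr19:18281623-18281872 on the minus strand and held 1 CRE, the element of CREB and ATF factors.
NR4A1: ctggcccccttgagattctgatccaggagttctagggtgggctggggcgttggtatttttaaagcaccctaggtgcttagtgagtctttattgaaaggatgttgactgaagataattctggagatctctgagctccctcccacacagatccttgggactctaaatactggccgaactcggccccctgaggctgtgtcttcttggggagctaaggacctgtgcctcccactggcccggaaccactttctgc
EGR1: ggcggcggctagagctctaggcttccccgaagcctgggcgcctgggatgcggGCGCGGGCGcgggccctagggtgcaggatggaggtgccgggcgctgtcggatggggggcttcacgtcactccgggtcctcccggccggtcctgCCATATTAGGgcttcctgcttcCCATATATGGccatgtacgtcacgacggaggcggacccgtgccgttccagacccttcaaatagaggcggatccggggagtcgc
JUND: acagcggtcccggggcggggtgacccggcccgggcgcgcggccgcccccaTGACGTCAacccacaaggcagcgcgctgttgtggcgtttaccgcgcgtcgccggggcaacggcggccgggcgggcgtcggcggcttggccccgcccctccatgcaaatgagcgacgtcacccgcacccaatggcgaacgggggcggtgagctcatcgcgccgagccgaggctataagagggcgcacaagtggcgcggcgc
The capitals in the EGR1 stretch mark, from left to right, the EGR1 site GCGCGGGCG at positions -198 to -190 from the start, the CArG box CCATATTAGG at -105 to -96 and the CArG box CCATATATGG at -83 to -74. Those in the JUND stretch mark TGACGTCA at -200 to -193. Both strands were searched for the AP-1 site TGANTCA, the CRE TGACGTCA, the CArG box, the EGR1 site GCGNGGGCG, the NR4A element NBRE AAAGGTCA and TATAAA, and no matches overlapped in these stretches. Among 35116 promoters of the same length in the RefSeq table, 6.57% held the AP-1 site, 1.65% the CRE, 1.16% a CArG box, 8.42% the EGR1 site, 1.05% the NBRE and 10.7% TATAAA. The table held 8 of the 10 members, with FOSL1 and NR4A2 not among them. It gives NR4A1 a second start 14883 bases downstream, and the counts per gene do not separate transcripts from the 2 starts. The 250 bases before that second start, at 69.6% GC beside 53.2% in the printed stretch, also held none of the motifs searched. Only exact matches within 250 bases of the listed starts were sought. Looser or more distant elements, and any starts that the table does not list, are not covered. FOS, FOSB and JUNB each held TATAAA, at -33, -30 and -31, and no other motif searched.

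Among the FOS proteins, FOSL1 stood apart. FOSL1 (ENSG00000175592, GRCh38 chromosome 11, 65892049 to 65900573, minus strand) had 88.9, 99.1, 103.6 and 114.5 CPM in SPOCK1 libraries 1 to 4, against 68.9, 76.7, 69.9 and 76.4 CPM in control libraries 1 to 4. Every SPOCK1 library lay above every control, the gap running between SPOCK1 library 1 and control library 2. The mean was 101.5 ± 10.6 CPM with SPOCK1 and 73.0 ± 4.15 CPM in controls (SD, n = 4 each), which is 1.39-fold higher with a log2 fold change of 0.48 ± 0.09 (SE). It was the 1 member called higher, where 0.247% of all tested genes were. Its log2 fold change lay between 0.42 and 0.53 with any 1 library left out.

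FOS, the founding member and usual partner of JUN, had 31.3, 34.6, 32.3 and 39.2 CPM in SPOCK1 libraries 1 to 4, against 36.8, 41.7, 33.4 and 43.4 CPM in control libraries 1 to 4. The groups overlapped, with SPOCK1 library 4 above control libraries 1 and 3 and SPOCK1 library 2 above control library 3. FOSL2, which encodes FRA2, had 72.4, 89.1, 85.7 and 96.5 CPM in SPOCK1 libraries, against 101.5, 99.5, 89.5 and 98.9 CPM in controls. Here the overlap came from SPOCK1 library 4 and control library 3. FOSB, the scarcest of the family, averaged 3.30 ± 0.73 CPM with SPOCK1 and 3.77 ± 0.48 CPM in controls (SD, n = 4 each). Log2 fold changes were -0.18 ± 0.11 for FOS, -0.18 ± 0.09 for FOSL2 and -0.19 ± 0.18 for FOSB (SE), and none of the 3 was called. Their 95% intervals, not adjusted for the number of genes, ran from -0.40 to 0.04, from -0.37 to 0.01 and from -0.58 to 0.20. FOSB lies within the span of ERCC1 on the other strand, at 97.8 CPM with SPOCK1 and 97.5 CPM in controls, and without a stated strand setting their reads cannot be fully separated.

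**Figure D1:**
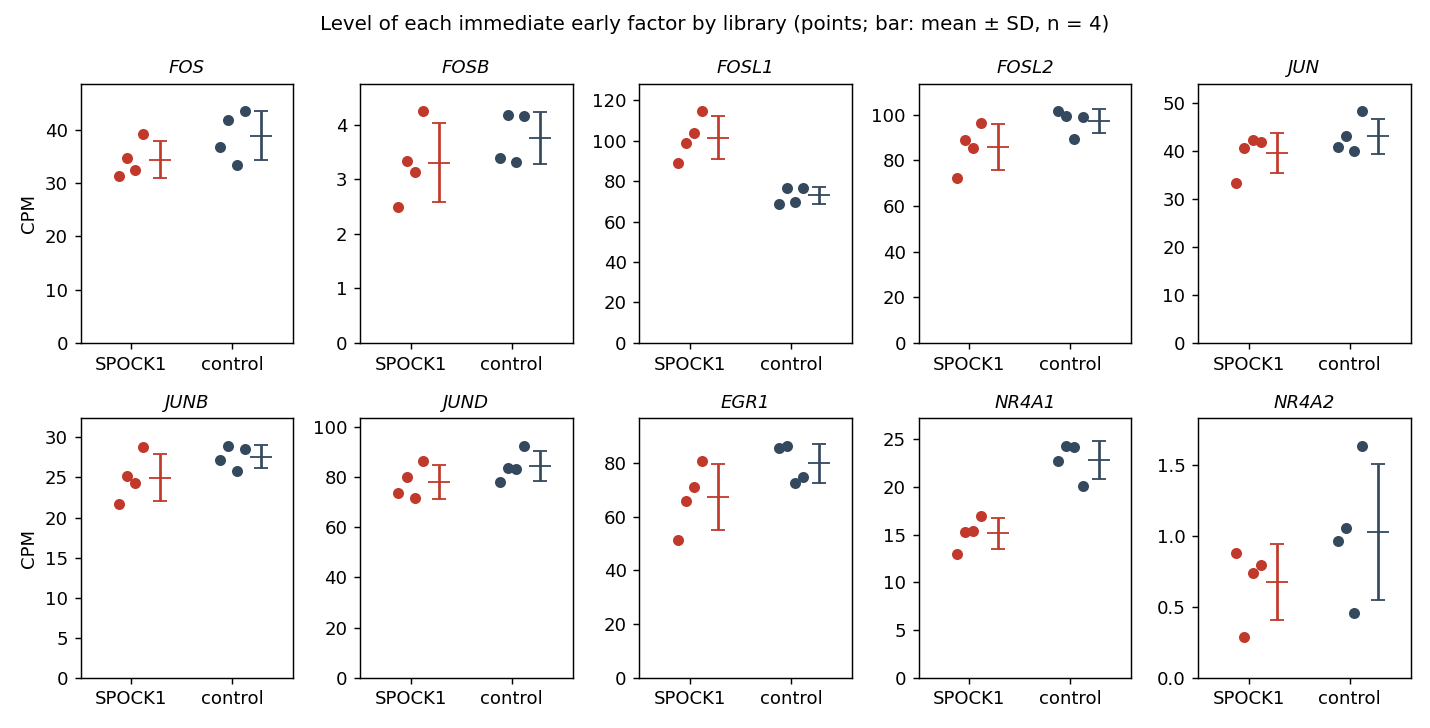
Level of each of the 10 factors in CPM (vertical axes, each from 0) in the 4 SPOCK1 libraries (red, left) and the 4 control libraries (dark, right). Points are libraries 1 to 4 from left to right within a group, and bars give the mean ± SD; FOSL1 and NR4A1 are the members whose groups do not overlap.

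The JUN proteins differed less. JUN, the dimer core that can also act without a FOS partner, had 33.3, 40.7, 42.3 and 41.8 CPM in SPOCK1 libraries 1 to 4, against 40.7, 43.1, 40.0 and 48.2 CPM in control libraries 1 to 4. SPOCK1 library 1 was the low value, and the other 3 lay among the controls. JUND, the member least dependent on stimulation, averaged 78.0 ± 6.83 CPM with SPOCK1 and 84.2 ± 5.99 CPM in controls (SD, n = 4 each). JUNB, which can restrain JUN, averaged 24.99 ± 2.93 CPM with SPOCK1 and 27.6 ± 1.45 CPM in controls (SD, n = 4 each). Log2 fold changes were -0.12 ± 0.10 for JUN, -0.11 ± 0.09 for JUND and -0.14 ± 0.10 for JUNB (SE), with 95% intervals from -0.33 to 0.09, from -0.29 to 0.07 and from -0.36 to 0.07. None was called, and the groups overlapped in all 3. JUNB lies inside the span of HOOK2 on the opposite strand, which stood at 47.8 CPM with SPOCK1 and 58.5 CPM in controls.

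Per length, FOSL1 took a larger part of the FOS family with SPOCK1. Each gene's CPM was divided by its deposited length in kb, and shares of the family sum were taken in each library. FOSL1 made up 69.9%, 68.9%, 70.9% and 69.7% of the FOS family in SPOCK1 libraries 1 to 4, against 58.3%, 59.6%, 61.3% and 59.2% in control libraries 1 to 4. FOSL2 made up 15.6% ± 0.55 with SPOCK1 and 21.0% ± 1.1 in controls, and FOS 13.8% ± 0.63 with SPOCK1 and 18.4% ± 1.1 in controls (SD, n = 4 each). These shares are bound to sum to the whole, so those of FOS and FOSL2 move whenever FOSL1 does. FOSL1 was among the genes chosen for their difference between the groups, so its larger share restates that difference and supports nothing. The same holds for its share of all AP-1 genes and for its place beside JUND in the order of levels. The family sum was 77.0 ± 8.1 CPM per kb with SPOCK1 and 64.9 ± 4.0 CPM per kb in controls (SD, n = 4 each), and these ranges overlapped, with SPOCK1 library 1 at 67.3 and control library 4 at 68.5.

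Within the JUN family the shares differed by less than their spread. JUND held 62.7% ± 1.9 of the JUN family with SPOCK1 and 62.3% ± 1.1 in controls (SD, n = 4 each). JUNB held 20.5% ± 0.78 with SPOCK1 and 20.9% ± 1.0 in controls, and JUN 16.7% ± 1.4 with SPOCK1 and 16.7% ± 0.47 in controls. Over all 7 AP-1 genes, FOSL1 held 37.4% ± 1.1 with SPOCK1 and 28.1% ± 0.56 in controls, and the summed level was 144 ± 14 CPM per kb with SPOCK1 and 137 ± 8.2 CPM per kb in controls (SD, n = 4 each).

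**Figure D2:**
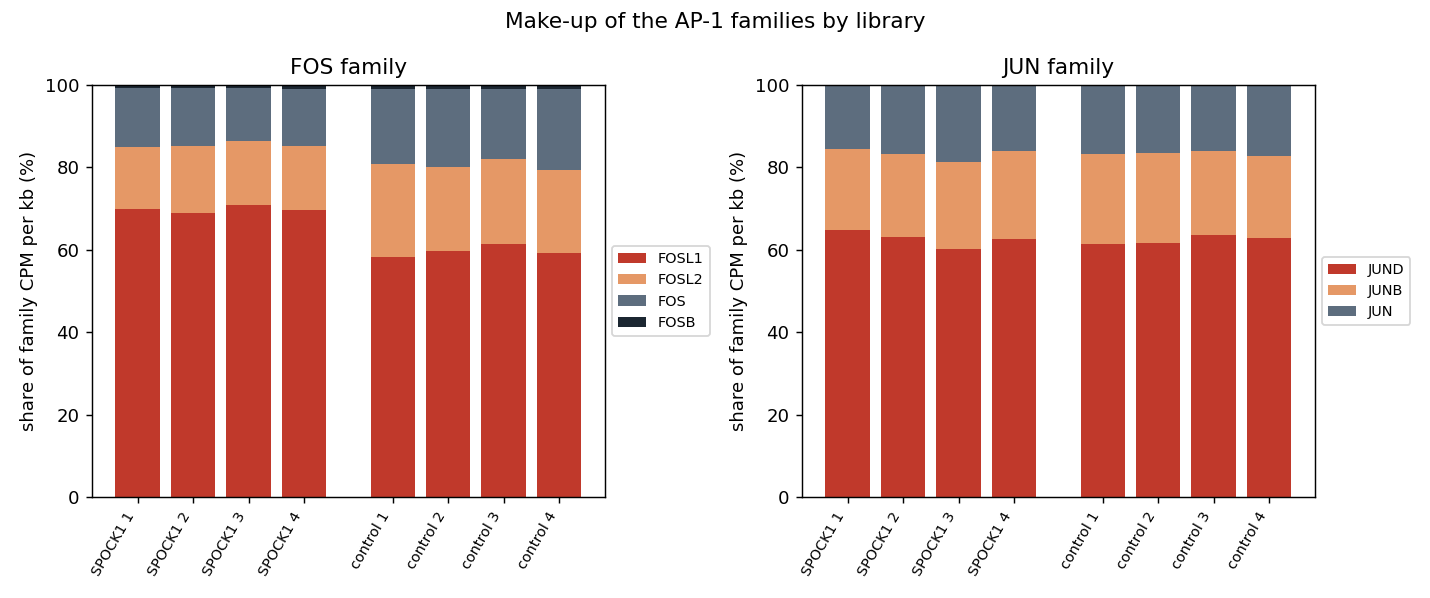
Share of each member in the summed CPM per kb of the FOS family (left panel) and the JUN family (right panel), in percent, for SPOCK1 libraries 1 to 4 and then control libraries 1 to 4. The FOSL1 part lies between 68.9% and 70.9% in SPOCK1 libraries and between 58.3% and 61.3% in controls, while the parts of the JUN family differ little between groups. FOSL1 was chosen for its rise, which its larger part restates.

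EGR1, a zinc finger factor induced through ERK and SRF, had 51.4, 65.8, 71.0 and 80.9 CPM in SPOCK1 libraries 1 to 4, against 85.8, 86.4, 72.7 and 74.7 CPM in control libraries 1 to 4. SPOCK1 libraries 1 to 3 lay below every control, while SPOCK1 library 4 lay above control libraries 3 and 4. The log2 fold change was -0.25 ± 0.12 (SE), with a 95% interval from -0.49 to -0.005 that is not adjusted for the genes tested, and EGR1 was not called. It was -0.14 without SPOCK1 library 1 and -0.35 without SPOCK1 library 4, and EGR1 was called in neither.

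NR4A1, also called NUR77 (ENSG00000123358, GRCh38 chromosome 12, 52022832 to 52059507, plus strand), had 13.0, 15.3, 15.3 and 16.9 CPM in SPOCK1 libraries 1 to 4, against 22.7, 24.3, 24.2 and 20.1 CPM in control libraries 1 to 4. All SPOCK1 libraries lay below all controls. The mean was 15.1 ± 1.64 CPM with SPOCK1 and 22.8 ± 1.96 CPM in controls (SD, n = 4 each), a level lower by 33.6% and a log2 fold change of -0.59 ± 0.11 (SE). It was the 1 member called lower, where 0.798% of all tested genes were. Without control library 2 it was no longer called, at a log2 fold change of -0.56. The groups did not overlap in the higher direction in 3.43% of tested genes and in the lower direction in 4.8%, and among the members this held for FOSL1 and NR4A1, the genes that led to the choice.

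NR4A2, also called NURR1, was close to the limit of testing, with 33, 10, 32 and 28 counts in SPOCK1 libraries 1 to 4, against 37, 39, 17 and 67 counts in control libraries 1 to 4. The groups overlapped widely. Its log2 fold change of -0.60 ± 0.41 (SE) was as large as that of NR4A1, with a 95% interval from -1.46 to 0.26, and at this depth neither a fall of that size nor its absence could be told. NR4A1 supplied 92.4% ± 3.2 of the summed CPM per kb of both receptors with SPOCK1 and 92.2% ± 4.0 in controls (SD, n = 4 each).

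Of the 10 members, 9 had a negative log2 fold change, 1 was called higher and 1 lower, the genes that led to the choice, and 8 were not called. Their median log2 fold change was -0.18, beside -0.004 over all 15790 tested genes, of which 1.04% were called.

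**Figure D3:**
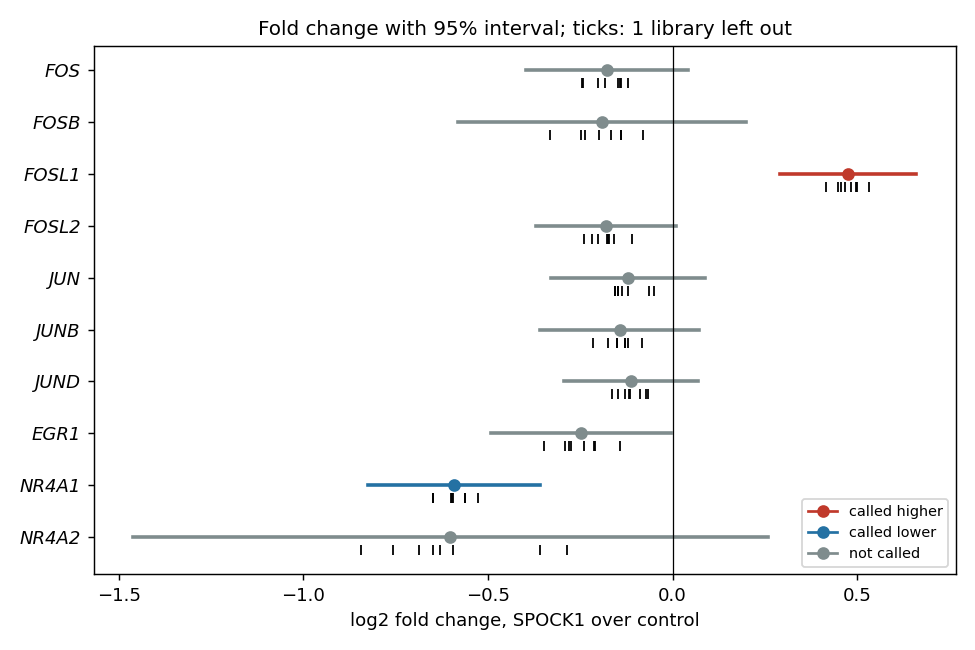
Log2 fold change of each factor, SPOCK1 over control (horizontal axis), with its 95% interval (line, not adjusted for the number of genes) and the values with 1 library left out (short ticks below). FOSL1 at 0.48 lies to the right of 0 and NR4A1 at -0.59 to the left, and the intervals of the others reach 0 or, for EGR1, end next to it.

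The order of levels per length was nearly the same in both groups. In SPOCK1 libraries FOSL1 came first at 53.8 ± 5.63 CPM per kb, then JUND at 41.9 ± 3.66, EGR1 at 21.4 ± 3.92 and JUNB at 13.7 ± 1.61 (SD, n = 4 each). In controls JUND came first at 45.2 ± 3.22 CPM per kb, then FOSL1 at 38.7 ± 2.2, EGR1 at 25.5 ± 2.30 and JUNB at 15.2 ± 0.79. The ranges of FOSL1 and JUND did not overlap in either group, with FOSL1 at 47.1 to 60.7 and JUND at 38.4 to 46.5 CPM per kb with SPOCK1, against FOSL1 at 36.5 to 40.6 and JUND at 41.8 to 49.6 CPM per kb in controls. FOSL2, JUN and FOS followed in both groups at 10.6 to 13.6 CPM per kb on average. Neighbours in this stretch of the order, JUNB and FOSL2, FOSL2 and JUN, and JUN and FOS, overlapped in range in both groups. NR4A1 at 2.07 ± 0.22 CPM per kb with SPOCK1 and 3.13 ± 0.27 in controls, FOSB at 0.59 ± 0.13 with SPOCK1 and 0.68 ± 0.09 in controls, and NR4A2 at 0.17 ± 0.07 with SPOCK1 and 0.26 ± 0.12 in controls closed the order.

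Within a group, the members were often high or low in the same libraries. In SPOCK1 library 4 all 10 lay above the group mean, and it was the highest of its group for 8 of them. SPOCK1 library 1 was the lowest of its group for 8, and only NR4A2 lay above the mean there. In SPOCK1 libraries 2 and 3, 7 and 6 members lay above it. Among controls, 9 members lay above the mean in library 2 and 8 in library 4, against 2 in library 1 and 1 in library 3. The libraries also differed in a trend with GC content. With genes ordered by GC content into 5 groups of equal size, the mean log2 deviation of the GC-richest group minus that of the GC-poorest was -0.25, 0.03, -0.18 and 0.25 in SPOCK1 libraries 1 to 4, against -0.12, 0.20, -0.16 and 0.24 in control libraries 1 to 4. The part of this trend in the members' values was not tested. Longest transcripts of the members had 47.9% GC in NR4A2 to 69.7% in JUND. With offsets that remove trends in GC content and length from each library, log2 fold changes were 0.50 ± 0.06 for FOSL1 and -0.51 ± 0.09 for NR4A1 (SE). That of JUND was -0.01, beside -0.11 without offsets. Those of JUNB, JUN, FOSB, FOSL2, FOS, EGR1 and NR4A2 with offsets were -0.09, -0.09, -0.15, -0.15, -0.18, -0.24 and -0.64.

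Within libraries 1 and 3 of both groups, FOSL1 had a log2 fold change of 0.47 and NR4A1 of -0.72, and within libraries 2 and 4 they had 0.48 and -0.46. With 2 libraries in a group, FOSL1 was not called in libraries 1 and 3, nor NR4A1 in either set. The within-group SD of log2 values was 0.12 for FOSL1 and 0.14 for NR4A1, and 29.6% and 41.6% of the 13183 tested genes with a mean of at least 1 CPM had a smaller one. EGR1 and FOSB, at 0.21 and 0.22, were more variable than 73.1% and 76.3% of those genes, and FOS, at 0.16, than 50.1%.

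**Figure D4:**
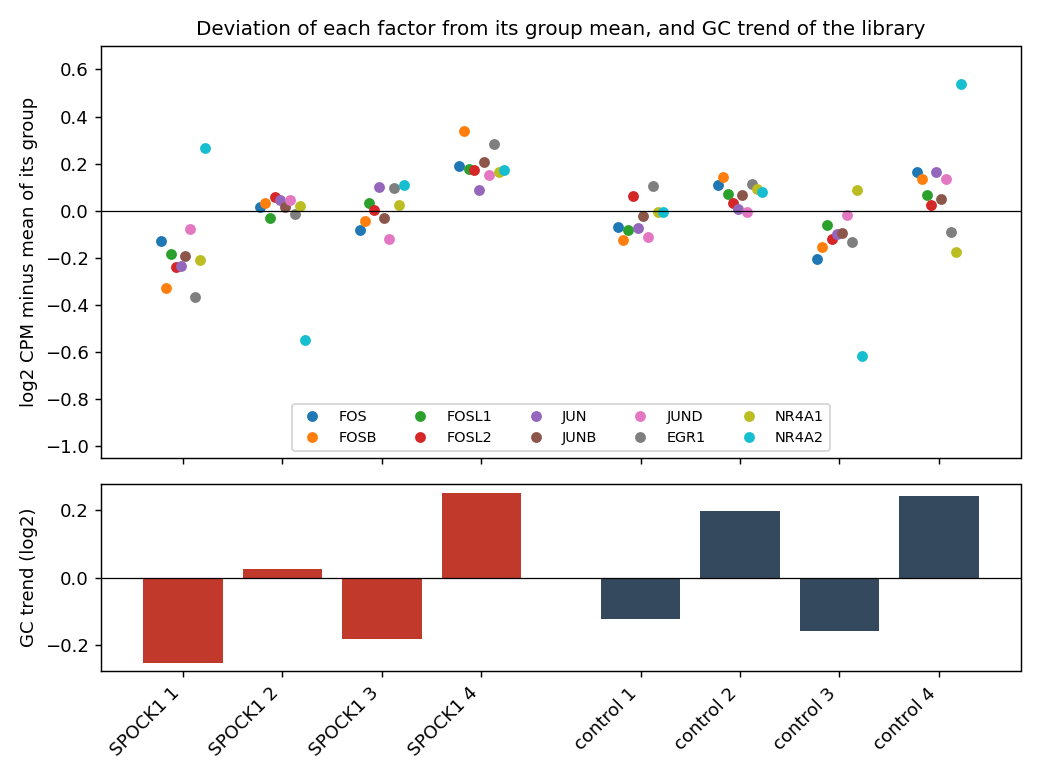
Upper panel: deviation of each factor's log2(CPM + 0.5) from the mean of its own group, for SPOCK1 libraries 1 to 4 and then control libraries 1 to 4. Lower panel: GC trend of the same libraries in log2 units, from -0.25 in SPOCK1 library 1 to 0.25 in SPOCK1 library 4; the members lie mostly below 0 in SPOCK1 library 1 and all above 0 in SPOCK1 library 4.

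Around the members, 167 further genes in 8 lists covered dimer partners, relatives, the signalling route, feedback and targets, and 154 were tested. Of these 1 was called higher and 2 lower, 1.95% in all beside 1.04% of all tested genes, and their median log2 fold change was -0.08. The higher one was PLK2, a stress-responsive kinase, and the lower ones included PDGFA, a growth factor chain. The 8 lists were chosen with earlier results of these data known, so counts within them are given as a description.

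The dimer partners of AP-1 held 0 genes called by edgeR among 18 tested, with a median log2 fold change of -0.10. DESeq2 also called 0, where edgeR called 1.04% and DESeq2 2.52% of all tested genes. An unadjusted edgeR p under 0.05 was found for 2, or 11.1%, beside 13.7% of all tested genes. MAFG, a small MAF protein with the smallest p of the list, averaged 67.7 ± 5.21 CPM with SPOCK1 and 82.1 ± 1.86 CPM in controls (SD, n = 4 each). The difference was -0.28 ± 0.08 on the log2 scale (SE, edgeR adjusted p = 0.118). MAFG was called in 2 of 20 alternatives and not called in 18. The 2 were without SPOCK1 library 4, at -0.33 (adjusted p = 0.0466), and with GC and length offsets, at -0.24 (adjusted p = 0.0281). Over all alternatives the edgeR, DESeq2 or voom adjusted p ran from 0.0281 to 0.418. MAFG overlaps SIRT7. Among relatives and cofactors of EGR1 and the NR4A receptors 0 of 9 were called by edgeR or DESeq2, 0 had an unadjusted p under 0.05, and the median was -0.17. RXRB, a partner of NR4A receptors in heterodimers, had the smallest p there, at 39.2 ± 2.86 CPM with SPOCK1 and 44.7 ± 3.60 CPM in controls (SD, n = 4 each, adjusted p = 0.378), and it overlaps SLC39A7.

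The MAPK and SRF route held 0 genes called by edgeR or DESeq2 among 35 tested, with a median of -0.04. Over all tested genes edgeR called 1.04% and DESeq2 2.52%, so 0 calls in a list this short say little about it. An unadjusted edgeR p under 0.05 was found for 4, or 11.4%, beside 13.7% of all tested genes. NRAS, the RAS isoform with the smallest p of this list, averaged 68.0 ± 7.37 CPM with SPOCK1 and 57.2 ± 3.96 CPM in controls (SD, n = 4 each). The difference was 0.25 ± 0.09 on the log2 scale (SE, adjusted p = 0.245). Feedback inhibitors and readouts of the route held 0 genes called by edgeR or DESeq2 among 19 tested. Of these, 6, or 31.6%, had an unadjusted edgeR p under 0.05, all lower with SPOCK1. Among all tested genes 13.7% did so in either direction, 867 of them higher and 1290 lower. Of the 19, 15 stood lower with SPOCK1, with a median log2 fold change of -0.12. DUSP8, a phosphatase of JNK and p38 kinases, averaged 3.72 ± 0.51 CPM with SPOCK1 and 5.23 ± 0.27 CPM in controls (SD, n = 4 each), and the difference on the log2 scale was -0.49 ± 0.15 (SE, adjusted p = 0.149). Genes of mRNA decay and protein turnover held 0 genes called by edgeR among 13 tested, 1 called by DESeq2 and 1 with an unadjusted edgeR p under 0.05, which was ZFP36 in both cases. ZFP36, which binds AU-rich elements in short-lived mRNAs and is itself an early gene, averaged 6.93 ± 1.28 CPM with SPOCK1 and 10.3 ± 1.44 CPM in controls (SD, n = 4 each). Its groups did not overlap, and they differed by -0.57 ± 0.15 on the log2 scale (SE, adjusted p = 0.0870). It was called in 5 of 20 alternatives, among them DESeq2 (adjusted p = 0.0188) and the offsets (adjusted p = 0.0251), where adjusted p over all alternatives ran from 0.0144 to 0.418.

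Other immediate early genes had 1 call higher and none lower among 27 tested, with 13 log2 fold changes above 0, 14 below and a median of -0.07. DESeq2 called 2, and 11, or 40.7%, had an unadjusted edgeR p under 0.05, 4 higher and 7 lower with SPOCK1. The shares over all tested genes were 1.04% called by edgeR, 2.52% called by DESeq2 and 13.7% with such a p. PLK2 had 34.2, 31.9, 34.4 and 31.0 CPM in SPOCK1 libraries 1 to 4, against 27.8, 21.95, 24.6 and 23.7 CPM in control libraries 1 to 4. The groups did not overlap, and they differed by 0.42 ± 0.10 on the log2 scale (SE, adjusted p = 0.0464). The call held without control library 1 or SPOCK1 library 4 and was lost with any 1 of the other 6 libraries left out, where the log2 fold change stayed between 0.37 and 0.44 and the adjusted p lay between 0.0895 and 0.184. The replicate block also ended it (adjusted p = 0.0527).

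Targets of AP-1 had 0 calls higher and 1 lower among 23 tested, with a median of 0.11. The called share was 4.35%, beside 1.04% of all tested genes. DESeq2 called 2, beside 2.52% of all tested genes. An unadjusted edgeR p under 0.05 was found for 7, or 30.4%, beside 13.7% of all tested genes, and 5 of the 7 were higher and 2 lower with SPOCK1. Of 32 AP-1 targets listed, 9 were below the filter, among them MMP1, MMP7, MMP9, MMP10 and MMP13, the matrix metalloproteinases often used as AP-1 readouts, and IL6 and CXCL8.

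Log2 fold changes were negative for all 14 tested targets of EGR1, and their median was -0.24. Of the 14, 1, or 7.14%, was called lower by edgeR and by DESeq2. Among all tested genes edgeR called 1.04% and DESeq2 2.52%. An unadjusted edgeR p under 0.05 was found for 5 of the 14, or 35.7%, all lower with SPOCK1. Such a p was found for 13.7% of all tested genes, 867 of them higher and 1290 lower. The list was chosen with earlier results of these data known, and EGR1 itself was not called. These counts therefore describe the list and support nothing about the activity of EGR1. PDGFA had 56.4, 56.3, 63.3 and 62.1 CPM in SPOCK1 libraries 1 to 4, against 77.6, 74.3, 88.8 and 74.7 CPM in control libraries 1 to 4. The groups did not overlap, and they differed by -0.40 ± 0.09 on the log2 scale (SE, adjusted p = 0.0269). The call was lost without SPOCK1 library 2 or 3 (adjusted p = 0.136 and 0.0571) and without control library 1, 2 or 3 (adjusted p = 0.0594, 0.0527 and 0.103). Over all genes tested 7763 log2 fold changes were positive and 8027 negative. Within libraries 1 and 3, and within libraries 2 and 4, PDGFA was not called, at log2 fold changes of -0.47 and -0.33. PLK2 was not called within libraries 1 and 3, at 0.39 (adjusted p = 0.418).

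**Figure D5:**
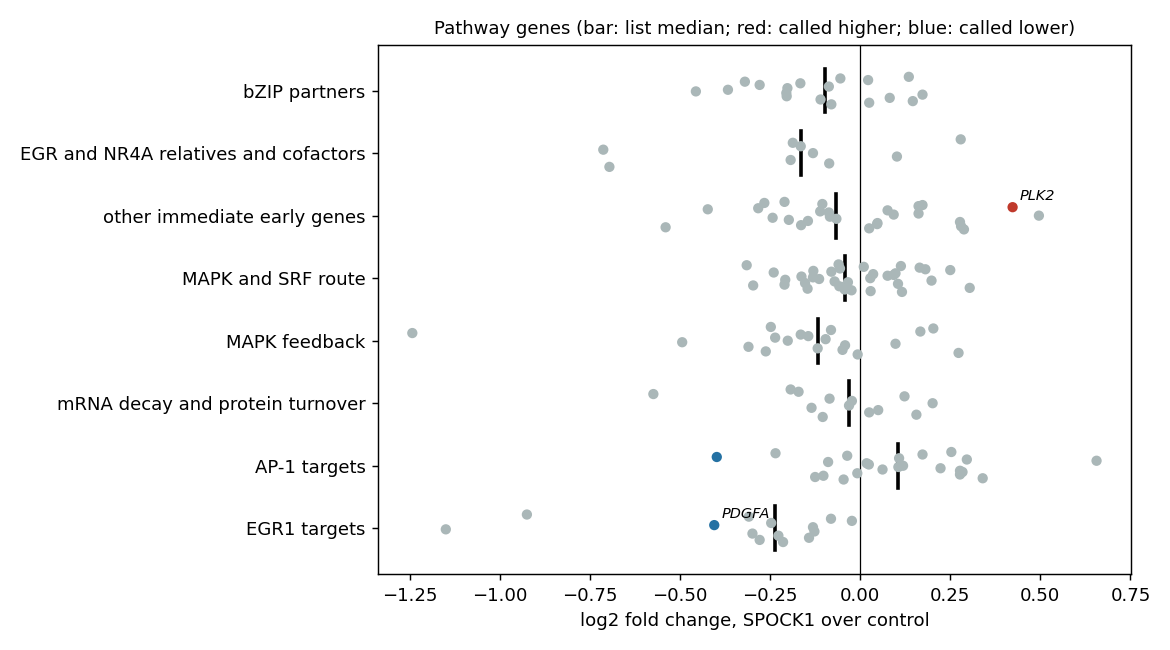
Log2 fold change, SPOCK1 over control (horizontal axis), of every tested gene in 8 lists around the members (rows), with the list median as a black bar. PLK2, called higher, is at 0.42 (red) and PDGFA, called lower, at -0.40 (blue); points in grey were not called.

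The genes whose pattern over the 8 libraries was most like that of FOSL1 were SLIT1, COL7A1, CDK2AP2, HYOU1 and LPCAT1. Likeness was the root mean square difference of the log2 deviations from each gene's own mean, over 8 libraries and 13182 genes with a mean of at least 1 CPM. These deviations include the difference between the groups. Genes near FOSL1 or NR4A1 therefore differ between the groups in the same direction by construction, and their group means only describe them. It was 0.06 for SLIT1 to 0.09 for LPCAT1, beside a median of 0.30 over all genes searched. SLIT1, a guidance ligand, averaged 37.9 CPM with SPOCK1 and 27.3 CPM in controls, and HYOU1, a chaperone of the endoplasmic reticulum, 327 CPM with SPOCK1 and 232 CPM in controls. For NR4A1 the nearest were PKP1, MLXIPL, OSBPL5, CASS4 and MYH7B, at 0.08 to 0.09 beside a median of 0.35. PKP1, a desmosomal plakophilin, averaged 6.75 CPM with SPOCK1 and 10.0 CPM in controls, and MLXIPL, the glucose-responsive factor ChREBP, 4.04 CPM with SPOCK1 and 6.57 CPM in controls.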

How the data were processed

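The deposited values are raw counts of reads in each gene, 1 column per library. The submitters' processing notes name HISAT2 2.0.5, CASAVA and featureCounts 1.5.0-p3. How featureCounts was set for strand and for multi-mapped reads is not given in the sources used here. Gene lengths used for CPM per kb were deposited beside the counts by the authors, as another kind of value, in bases. Start, end and strand of 58724 of 58735 genes were those of GENCODE release 29 on GRCh38.

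The groups were tested in R 4.3.3 with edgeR 4.0.16: filterByExpr (minimum count 10, minimum total 15), TMM factors, glmQLFit and glmQLFTest on the 2 groups without covariates, Benjamini-Hochberg over 15790 genes. SE came from the F statistic, and 95% intervals used the test's degrees of freedom. Values per library on a log scale are log2(CPM + 0.5). The steps were checked on simulated counts. Alternatives were DESeq2 1.42.0, voom in limma 3.58.1, upper-quartile or RLE factors, 2 other filters, the replicate block, offsets on GC content and length (splines of 5 degrees of freedom, GC known for 99.95% of tested genes), each library left out, 2 sets of libraries, and library sizes without SPOCK1.

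Members, lists and alternatives were chosen with earlier results of these data known. Named are every member, every called gene of a list (1 is not reported here) or else that with the smallest p, and the 5 genes most like FOSL1 and NR4A1. Of 199 list symbols, 195 matched directly and 4 through tables of other names. Promoters are from RefSeq.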

Additional observations from a re-analysis of the deposited data

Results flagged for a closer look

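Among 40 sets of 4 libraries examined for a library far from the others (10 members, 8 pathway genes and the sums of 2 families, in each group), 1 stood out, where chance alone flags about 1 in 20. RXRB stood at 43.5 CPM in SPOCK1 library 4, against 37.4 to 38.1 CPM in the other SPOCK1 libraries. The same library had the highest GC trend of its group, at 0.25, and the part of that trend in the RXRB value was not tested.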

How the results depend on the processing

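Over 20 alternatives the log2 fold change ran from 0.42 to 0.53 for FOSL1 and from -0.72 to -0.46 for NR4A1, the genes that led to the choice of members. Within libraries 1 and 3 alone 0 members were called higher. Within libraries 1 and 3, within libraries 2 and 4 and without control library 2, 0 members were called lower. None of the other 8 members was called in any alternative that gave an adjusted p, and of these NR4A2 alone changed sign, to 0.18 within libraries 1 and 3. With 1 library left out, members called higher stayed at 1 and 1, and members called lower ran from 0 to 1.

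Over all genes 39 were called higher and 126 lower. With 1 library left out there were 24 to 66 higher and 63 to 171 lower. DESeq2 gave 113 and 285, no filter beyond a total of 1 count gave 120 and 279, offsets on GC content and length gave 206 and 297, and libraries 1 and 3 alone gave 1 and 7. The replicate block with offsets gave 62 higher. The 1 higher and 2 lower pathway genes became 2 and 4 with DESeq2, 3 and 4 with no filter, 5 and 9 with offsets, 0 and 0 within libraries 1 and 3, and 2 and 0 within libraries 2 and 4. With 1 library left out they ran from 0 to 1 higher and from 0 to 5 lower. The cause of these shifts was not tested. Under the replicate block 0 pathway genes were called higher, and with block and offsets 2. Correlations of deviations between libraries of equal replicate number were -0.17, 0.11, 0.13 and 0.20. SPOCK1 libraries 1 to 4 correlated best with control libraries 3, 4, 1 and 2. How the libraries were prepared is not known, so these values cannot tell whether equal numbers pair them. With the replicate block 115 genes were called in place of 165, and FOSL1 and NR4A1 were at 0.47 and -0.59. Depth limits NR4A2, at 10 to 67 counts per library.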

Other observations

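Beside PLK2, 10 early genes had an unadjusted edgeR p under 0.05 and did not pass the test over all genes. Lower with SPOCK1 were BTG2, PER1, PHLDA1, SOX9, IER5L, TRIB1 and IER3, at log2 fold changes of -0.54, -0.42, -0.28, -0.27, -0.24, -0.21 and -0.20. Higher were KLF2, CSRNP1 and RHOB, at 0.50, 0.28 and 0.17 (adjusted p = 0.262, 0.344 and 0.350). BTG2, an antiproliferative early gene, averaged 5.32 ± 0.48 CPM with SPOCK1 and 7.73 ± 0.94 CPM in controls (SD, n = 4 each), a difference of -0.54 ± 0.14 on the log2 scale (SE, edgeR adjusted p = 0.0764) and no overlap between groups. KLF2, a Krüppel-like factor, averaged 11.3 ± 1.98 CPM with SPOCK1 and 7.99 ± 2.23 CPM in controls (SD, n = 4 each), and its groups overlapped. PHLDA1, a gene induced by ERK signalling, averaged 68.0 ± 4.5 CPM with SPOCK1 and 82.8 ± 8.67 CPM in controls (adjusted p = 0.162). From other lists, and chosen after their values were seen, ETV5, an ETS factor downstream of ERK, averaged 233 ± 14.9 CPM with SPOCK1 and 275 ± 14.0 CPM in controls (adjusted p = 0.168), and the ERK phosphatase DUSP6 averaged 98.9 ± 6.26 CPM with SPOCK1 and 102 ± 5.52 CPM in controls (adjusted p = 0.856). EZR, a cytoskeletal linker on the AP-1 target list and also chosen after its values were seen, averaged 450 ± 13.5 CPM with SPOCK1. In controls it averaged 369 ± 29.4 CPM (edgeR adjusted p = 0.0874). Of the 23 tested genes on that list, 15 stood higher and 8 lower with SPOCK1, and the 1 called was lower.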
